A study of Mus musculus with 13 samples.

Results

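The EGR and NR4A transcription factors, Npas4 and the synaptic genes Arc and Homer1 were followed across 3 comparisons of mouse cortex. They are Egr1, Egr2, Egr3, Egr4, Nr4a1, Nr4a2, Nr4a3, Npas4, Arc and Homer1, chosen by name with earlier results of these data known, and make up 10 of the 17562 genes measured. All 10 stand in each of the authors' 3 tables, and the lowest mean normalized count among them is 321, so a filter on low values removed none. The cortex came from 13 male mice aged 18 months. Of these, 5 were wild type (Grn+/+), 4 had 1 working copy of mouse progranulin (Grn+/-), and 4 lacked mouse Grn and carried a human GRN transgene (Grn-/-; GRNtg, called humanized below). All groups had the same sex, age and tissue, and the labels name neither the promoter of the transgene nor any treatment. Both mutant groups were set against the same 5 wild-type mice and against each other. The values are the authors' means, log2 fold changes and standard errors (SE) for whole groups. No value per mouse was available, so overlap between single mice is not described. Mouse Grn itself fell to 63.6% of wild type in Grn+/- (log2 fold change −0.65, SE 0.08, adjusted p = 2.92e-13) and to 24.7% in humanized mice (−2.02, SE 0.08, adjusted p = 5.81e-131) in the authors' deposited tables. Fam171a2 overlaps Grn on the opposite strand, so that reads could be shared. The source of the Grn signal left in humanized mice was not tested.

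Genes of this kind are switched on within minutes when a neuron fires. Calcium entering through NMDA receptors and voltage-gated channels activates kinases that phosphorylate CREB and SRF partners already bound to their promoters. The EGR factors are zinc-finger proteins, the NR4A factors are orphan nuclear receptors, and NPAS4 is a basic helix-loop-helix factor induced by calcium in neurons. Each drives a slower wave of target genes. ARC acts at the synapse, where it promotes the endocytosis of AMPA receptors. HOMER1 links group I metabotropic glutamate receptors to SHANK and to calcium stores, and a short isoform, Homer1a, is made after activity and loosens that scaffold.

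The stretches just before the start sites are shown for their repeated copies of the core of the cyclic AMP response element (CRE). CREB binds this site, and the 7 genes searched carry such copies whether they fell or not. Egr1, Egr3 and Arc were not searched, Egr1 being left out by name, so the motif counts do not cover these 3 members. RefSeq sequence of GRCm38.p6 was searched over the 250 bases before the start of these 7 genes, taking 1 start for each, and 32851 windows of the same length from 27025 genes gave the background. Each is written 5′ to 3′ along the gene's strand. Capitals mark CRE cores (TGACG, or CGTCA where the core lies on the other strand) and, in Egr2, a CArG box, the site of SRF. For Nr4a3 the part that GENCODE M21 does not annotate as exon is shown. Egr2, Egr4, Nr4a1, Nr4a3 and Homer1 passed the test in at least 1 mutant group, and Nr4a2, which passed in neither, is given for contrast.
Egr2, chr10:67537619-67537868, plus strand: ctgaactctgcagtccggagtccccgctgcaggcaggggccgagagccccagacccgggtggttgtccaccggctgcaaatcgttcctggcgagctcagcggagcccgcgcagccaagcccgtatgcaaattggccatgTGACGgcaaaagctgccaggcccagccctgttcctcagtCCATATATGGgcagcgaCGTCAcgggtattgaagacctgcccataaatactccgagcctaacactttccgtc
Egr4, chr6:85513590-85513839, minus strand: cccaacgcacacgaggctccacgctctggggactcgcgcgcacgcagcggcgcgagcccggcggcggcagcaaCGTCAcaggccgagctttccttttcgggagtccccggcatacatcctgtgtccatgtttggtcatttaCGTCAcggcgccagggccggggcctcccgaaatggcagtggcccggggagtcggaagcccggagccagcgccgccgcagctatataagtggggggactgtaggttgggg
Nr4a1, chr15:101266596-101266845, plus strand: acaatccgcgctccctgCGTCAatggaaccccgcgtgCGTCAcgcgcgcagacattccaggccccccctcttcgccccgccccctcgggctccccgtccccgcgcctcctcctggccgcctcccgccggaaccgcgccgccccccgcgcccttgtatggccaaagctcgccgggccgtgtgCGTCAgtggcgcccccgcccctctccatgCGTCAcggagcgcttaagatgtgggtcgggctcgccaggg
Nr4a3, chr4:48045055-48045152, plus strand: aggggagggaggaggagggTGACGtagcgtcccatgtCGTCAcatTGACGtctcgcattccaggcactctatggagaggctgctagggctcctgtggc
Homer1, chr13:93303507-93303756, plus strand: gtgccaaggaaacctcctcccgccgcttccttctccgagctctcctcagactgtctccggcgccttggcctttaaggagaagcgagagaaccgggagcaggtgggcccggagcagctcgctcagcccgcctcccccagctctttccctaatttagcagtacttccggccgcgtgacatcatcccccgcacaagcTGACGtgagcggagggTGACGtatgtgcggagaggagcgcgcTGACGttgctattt
Nr4a2, chr2:57124004-57124253, minus strand: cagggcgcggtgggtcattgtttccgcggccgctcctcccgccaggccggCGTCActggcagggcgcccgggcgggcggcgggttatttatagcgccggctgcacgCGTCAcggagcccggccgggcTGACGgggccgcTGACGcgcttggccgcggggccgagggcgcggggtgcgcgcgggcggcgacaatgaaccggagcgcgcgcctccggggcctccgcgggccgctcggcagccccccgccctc

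At least 2 CRE cores stood in all 7 windows, and in 3.90% of all windows. That background counts every RefSeq start, whereas 1 start was taken for each of the 7 genes. Over all 12 windows of the 7 genes, 9 held at least 2 cores and 3 held none, namely 2 of the windows of Egr2 and the other window of Homer1. A single core or more was found in 17.8% of all windows. Nr4a1, Nr4a2 and Nr4a3 held 4 cores each, 3 of them shown for Nr4a3, and 0.137% of all windows held 4 or more. Homer1 held 3, and Egr2, Egr4 and Npas4 held 2. The Npas4 window lies wholly in exon by the GENCODE annotation and is not printed. The full palindrome TGACGTCA, which contains overlapping cores on both strands, was in 0 of 7 windows and in 1.55% of all. A CArG box stood in the Egr2 window alone of the 7, from −72 to −63 bases of the start, and in 1.47% of all windows. The response element of NR4A monomers (NBRE, AAAGGTCA) was in 0 of 7 windows and in 439 of all 32851. The EGR site GCGTGGGCG was in 0 of 7 and 0.536% of all, while its variant GCGGGGGCG was in the Nr4a1 window and 2.57% of all. All motifs were searched on both strands. GC content ran from 61.6% in Egr2 to 80.0% in Nr4a2, above the median of 52.4% over all windows. The CRE core itself contains CG, and the background was not matched for GC content. The part of GC content in the core counts was not tested. Nr4a2 has as many cores as Nr4a1 and Nr4a3 but passed the test in neither mutant.

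**Figure D1:**
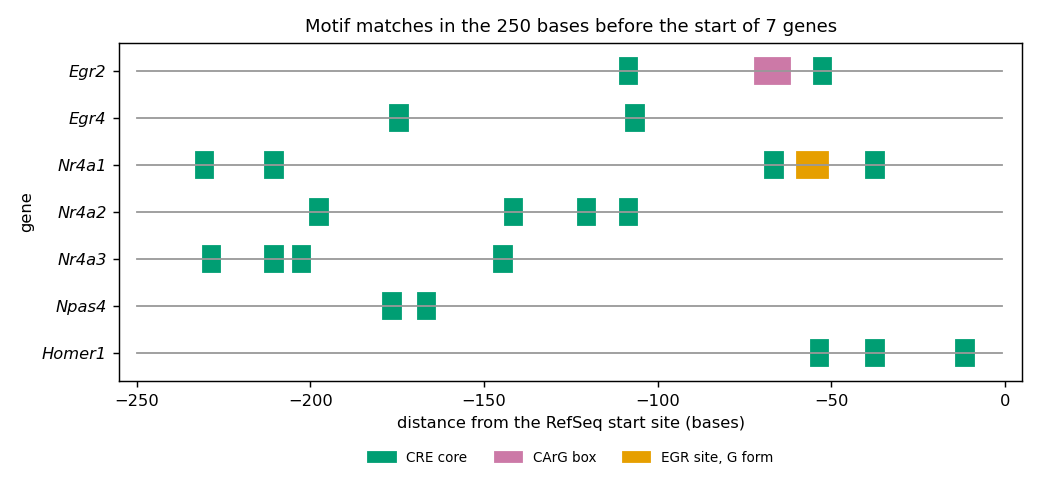
Motif matches before the start sites of 7 genes. The x axis is the distance from the RefSeq start in bases, each line is 1 gene's 250-base window, and boxes are CRE cores, a CArG box and the G form of the EGR site. The 4 cores of Nr4a2 lie between −200 and −107, and 2 of the 4 of Nr4a1 lie between −69 and −36.

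Abundance differed widely within the set. Per kilobase of annotated exon, the mean normalized count over all libraries was highest for Arc, at 3112, followed by Egr1 at 1958, Nr4a1 at 1176, Egr3 at 979 and Egr4 at 672 in the authors' deposited tables. Nr4a2 stood at 229, Npas4 at 201, Homer1 at 153, Nr4a3 at 128 and Egr2 at 94.4. Arc and the more abundant EGR factors were thus at many times the level of Egr2 in this cortex. Without values per mouse the spread is unknown, and neighbours in this order cannot be said to differ. Homer1 moves from the eighth place to the sixth, at 320 per kilobase, when the longest coding transcript is used in place of all exons. Its 12 annotated transcripts range widely in length, and a gene total does not separate Homer1a from the long forms.

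Against wild type, part of the set fell in each mutant. In Grn+/- mice 3 of 10 fell (Egr4, Nr4a3 and Homer1) and in humanized mice 5 of 10 (Egr2, Egr4, Nr4a1, Nr4a3 and Arc), at adjusted p under 0.05 in the authors' Wald test. No member rose. Over all genes, 4.51% fell and 2.29% rose in Grn+/-, and 3.05% fell and 1.81% rose in humanized mice. At an unadjusted p under 0.05, 5 members were lower in Grn+/-, where 11.1% of all genes were, and 7 in humanized mice, where 10.4% were. The members' median log2 fold change was −0.25 in Grn+/-, with 10 of 10 negative, and −0.39 in humanized mice, with 9 of 10 negative. Over all genes these medians were 0.01 and 0.01, with 47.6% and 48.7% negative. Since the genes were chosen with earlier results known, these shares describe the set and are no independent evidence of its direction. Both comparisons use the same wild-type mice, so they are not independent of each other. In bulk tissue, fewer cells that express a gene and less RNA per cell cannot be told apart.

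**Figure D2:**
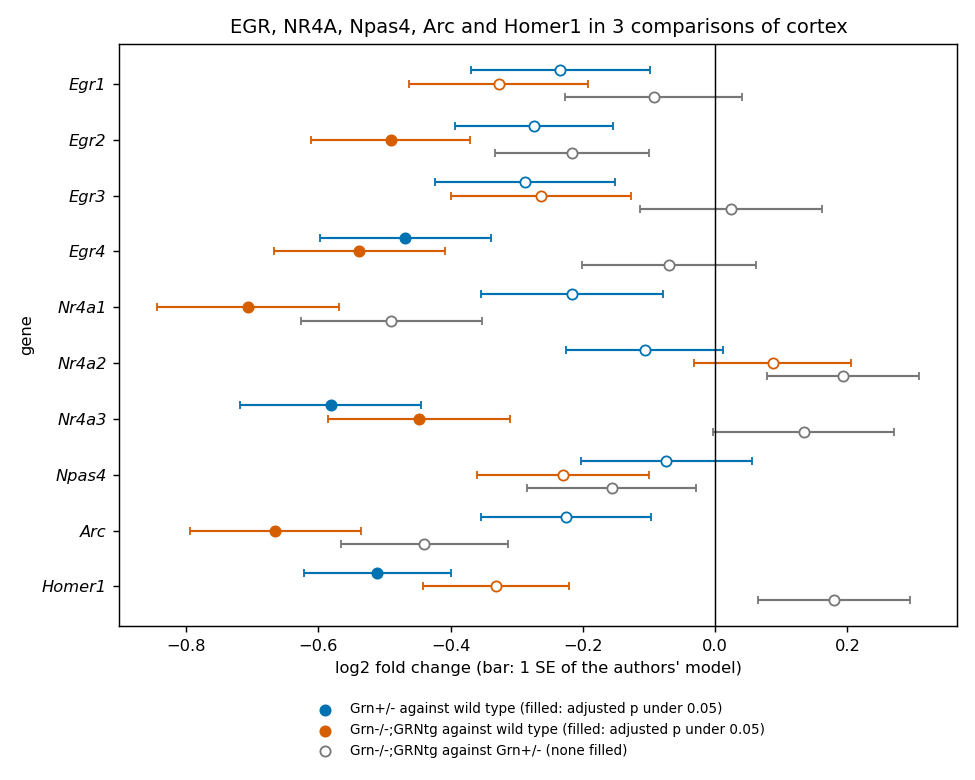
Log2 fold changes of the 10 genes. The x axis is the authors' log2 fold change, bars are 1 SE of the authors' model, blue is Grn+/- and orange humanized against wild type, grey is humanized against Grn+/-, and filled points have an adjusted p under 0.05. Blue filled points are Egr4, Nr4a3 and Homer1, and orange ones are Egr2, Egr4, Nr4a1, Nr4a3 and Arc, while no grey point is filled.

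Among the EGR factors, Egr4 fell in both mutants. This gene (chr6:85511121-85513589, minus strand, GRCm38) was at 72.3% of wild type in Grn+/- (95% interval 60.6 to 86.1, log2 fold change −0.47, SE 0.13, adjusted p = 0.0105) in the authors' deposited table. In humanized mice Egr4 was at 68.9% (57.8 to 82.1, −0.54, SE 0.13, adjusted p = 0.00325). Egr2 (chr10:67535475-67542188, plus strand), the least abundant member and known for myelination and hindbrain patterning as well as for its induction by activity, fell to 71.2% of wild type in humanized mice (60.5 to 83.7, −0.49, SE 0.12, adjusted p = 0.00395). In Grn+/- Egr2 stood at 82.7% (70.3 to 97.3), with an adjusted p of 0.156 in the authors' deposited table.

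The abundant EGR genes did not pass. Egr1, the most widely used marker of recent neuronal activity in this family, was at 85.0% of wild type in Grn+/- (70.8 to 102, adjusted p = 0.327) and 79.7% in humanized mice (66.3 to 95.8, adjusted p = 0.131) in the authors' deposited tables. Egr3 was at 81.9% (68.1 to 98.5, adjusted p = 0.198) and 83.3% (69.2 to 100.2, adjusted p = 0.249). In Grn+/- both intervals include a fall as large as that of Egr4, and in humanized mice that of Egr1 does. In all, 1 of 4 EGR genes fell in Grn+/- and 2 of 4 in humanized mice, and all 4 had negative fold changes in both, with medians of −0.28 and −0.41.

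Of the NR4A receptors, Nr4a3 fell in both mutants and Nr4a1 in humanized mice. Nr4a1 (chr15:101254269-101274795, plus strand), also called Nur77, was at 61.3% of wild type in humanized mice in the authors' deposited table (50.9 to 73.9, −0.71, SE 0.14, adjusted p = 0.000116). Of the 14961 genes of that comparison, 10 had a lower fold change than Nr4a1. In Grn+/- Nr4a1 stood at 86.1% (71.4 to 104), with an adjusted p of 0.384. Nr4a3 (chr4:48045153-48086447, plus strand) fell to 66.8% in Grn+/- (55.5 to 80.5, −0.58, SE 0.14, adjusted p = 0.00168) and 73.3% in humanized mice (60.9 to 88.4, −0.45, SE 0.14, adjusted p = 0.0323) in the authors' deposited tables. Nr4a3 had the lowest fold change of the 10 genes in Grn+/-, and 35 of 13482 genes lay below it. Nr4a2 (chr2:57106830-57124003, minus strand), or Nurr1, known for its role in dopamine neurons and in deep cortical neurons, was at 92.9% in Grn+/- (79.1 to 109, adjusted p = 0.674) and at 106% in humanized mice (90.4 to 125, adjusted p = 0.721). It was the single member with a fold change above 0 against wild type.

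Npas4 (chr19:4984355-4990316, minus strand), which shapes inhibitory synapses after activity, did not pass in either mutant. Its log2 fold change was −0.07 in Grn+/- (SE 0.13, an interval of 79.7 to 113% of wild type, adjusted p = 0.811) and −0.23 in humanized mice (SE 0.13, 71.5 to 102%, adjusted p = 0.301) in the authors' deposited tables. The interval in humanized mice includes both the wild-type level and a fall as large as that of Nr4a3 there.

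Each synaptic gene passed in 1 of the mutants. Arc (chr15:74669083-74672570, minus strand) fell to 63.1% of wild type in humanized mice (53.0 to 75.1, −0.66, SE 0.13, adjusted p = 0.000109), and 14 genes had a lower fold change, in the authors' deposited table. In Grn+/- Arc was at 85.6% (71.8 to 102), with an adjusted p of 0.321. Homer1 (chr13:93299635-93405129, plus strand) showed the smallest adjusted p of the set in Grn+/-, at 70.2% of wild type (60.4 to 81.6, −0.51, SE 0.11, adjusted p = 0.000486) in the authors' deposited table, with 64 genes lower. In humanized mice Homer1 was at 79.5% (68.4 to 92.4, −0.33, SE 0.11, adjusted p = 0.054). That value lay at the threshold: it became 0.0493 with fold changes centred on the median of all genes and 0.0464 over genes with a mean normalized count of at least 100. The annotation holds the unprocessed transcripts Gm47075 and Gm47088 on the same strand inside Homer1, and their reads could be shared with it.

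**Figure D3:**
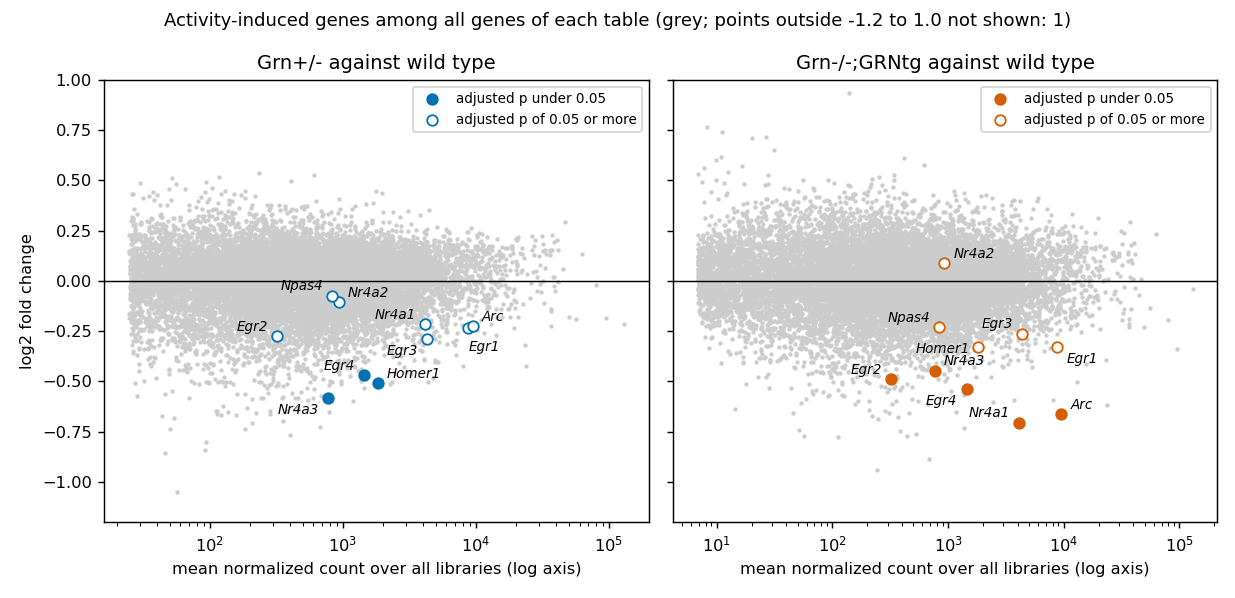
The 10 genes among all genes. The x axis is the authors' mean normalized count (log axis) and the y axis their log2 fold change against wild type, for Grn+/- at left and humanized mice at right, with all other genes in grey. Nr4a1 at −0.71 and Arc at −0.66 lie at the lower edge among abundant genes in humanized mice, and Nr4a3 at −0.58 and Homer1 at −0.51 do so in Grn+/-.

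Set against each other, the mutants did not differ in any of the 10 genes at an adjusted p under 0.05. In that comparison 0.148% of all genes were lower and 0.319% higher in humanized mice. The largest differences were those of Nr4a1 and Arc, which passed in humanized mice and not in Grn+/- when each was set against wild type. Nr4a1 stood in humanized mice at 71.2% of Grn+/- (59.1 to 85.8, −0.49, SE 0.14, adjusted p = 0.061) and 16 of 17562 genes had a lower fold change in the authors' deposited table. Arc stood at 73.7% of Grn+/- (62.1 to 87.5, −0.44, SE 0.13, adjusted p = 0.073), with 25 genes lower. These are the 2 members below an unadjusted p of 0.05, where 3.85% of all genes were lower.

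Homer1 and Nr4a3, whose fold changes were larger in Grn+/-, were at 113% (97.0 to 132, adjusted p = 0.697) and 110% (91.2 to 132, adjusted p = 0.86) of Grn+/- in humanized mice in the authors' deposited table. Nr4a2 was at 114% (97.7 to 134, adjusted p = 0.661). The values of Egr1, Egr2, Egr3, Egr4 and Npas4 ran from 86.1% for Egr2 to 102% for Egr3. Of the 10 genes, 6 were below and 4 above the Grn+/- level, with a median log2 fold change of −0.08. Although different members passed against wild type in the 2 mutants, the test of the difference itself passed for none.

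The 10 genes also had larger deposited SEs than most other genes of at least moderate count. SEs stop at 0.138 in every comparison, so how far they reflect the spread between mice is not known. Their SEs against wild type ran from 0.11 to 0.14 log2 units, with a median of 0.13, in the authors' deposited tables. The median SE of the 11359 other genes with a mean normalized count of at least 100 was 0.09. In Grn+/- against wild type 94.2% of those genes had an SE below the members' median. When the Wald statistics were divided by their robust spread over all genes, 0 of the 10 passed in any comparison. Few genes of any kind passed then. The shares over all genes were 0.0223% in Grn+/- and 0.0334% in humanized mice against wild type, and 0.165% between the mutants. Among the members that had fallen in Grn+/-, adjusted p then ran from 0.238 for Homer1 to 0.548 for Egr4. In humanized mice it ran from 0.394 for Nr4a1 and Arc to 0.99 for Nr4a3.

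A list of other genes that activity switches on rapidly was measured beside them. Of 30 measured, which include the AP-1, KLF, IER and DUSP genes, 3 fell in Grn+/- and 20 in humanized mice, none rose, and the medians were −0.17 and −0.51. This list holds genes that were added with their values in these tables known, so the counts describe it and support no direction. In Grn+/- these were Klf4 (−0.58, SE 0.13, adjusted p = 0.00119), Atf3 (−0.57, SE 0.13, adjusted p = 0.000869) and Fosl2 (−0.43, SE 0.14, adjusted p = 0.0346) in the authors' deposited table. In humanized mice Trib1, a pseudokinase (−0.89, SE 0.13, adjusted p = 2.42e-08), Dusp6, a phosphatase that switches off ERK (−0.73, SE 0.11, adjusted p = 1.11e-07), Arl4d (−0.76, SE 0.13, adjusted p = 3.88e-06) and the zinc-finger factor Klf2 (−0.77, SE 0.13, adjusted p = 9.42e-06) had the smallest adjusted p. In humanized mice against Grn+/- 6 of the 30 were lower (20.0%, where 0.148% of all genes were), with a list median of −0.33. Among them were Ier2 (−0.78, SE 0.14, adjusted p = 1.38e-05), Csrnp1 (−0.73, SE 0.13, adjusted p = 2.62e-05), Dusp6 (−0.63, SE 0.11, adjusted p = 6.49e-05) and Trib1 (−0.63, SE 0.13, adjusted p = 0.00115).

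Genes of the slower wave, which factors of this kind help to drive, fell and rose. Of 24 measured, 3 fell (12.5%) and 1 rose in Grn+/-, where 4.51% of all genes fell and 2.29% rose. In humanized mice 3 fell (12.5%) and 2 rose, where 3.05% of all genes fell and 1.81% rose. The list medians were −0.11 and −0.10. Nrn1, which encodes the growth factor neuritin, rose in both mutants (0.28, SE 0.07, adjusted p = 0.00195 in Grn+/-, and 0.22, SE 0.07, adjusted p = 0.0373 in humanized mice) in the authors' deposited tables. Pcsk1, a prohormone-cleaving enzyme (−0.53, SE 0.12, adjusted p = 0.000835), Spred1, a brake on Ras signalling (−0.36, SE 0.09, adjusted p = 0.00609), and the cell-cycle inhibitor Cdkn1a (−0.45, SE 0.13, adjusted p = 0.0151) fell in Grn+/-. In humanized mice Mfap3l (−0.28, SE 0.08, adjusted p = 0.0174), Gpr3 (−0.44, SE 0.14, adjusted p = 0.0374) and Ptgs2 fell, and the sorting receptor Sorcs3 rose (0.32, SE 0.10, adjusted p = 0.0245).

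Some upstream components passed too. Of 22 transcription factors, coactivators and kinases that switch these genes on, 3 fell in Grn+/- (13.6%, where 4.51% of all genes fell) and 1 in humanized mice (4.55%, where 3.05% of all genes fell). Srf, the factor that binds the CArG box, fell in both (−0.25, SE 0.07, adjusted p = 0.016, and −0.24, SE 0.07, adjusted p = 0.0288) in the authors' deposited tables. The coactivators Crebbp (−0.32, SE 0.09, adjusted p = 0.0191) and Ep300 (−0.24, SE 0.07, adjusted p = 0.0257) fell in Grn+/-. Of 30 components that carry the signal from synapse to nucleus, 2 fell (6.67%) and 1 rose in Grn+/-, and 4 fell (13.3%) in humanized mice, while the list medians were 0.08 and 0.02. The NMDA receptor subunit genes Grin2b (−0.55, SE 0.13, adjusted p = 0.00169, and −0.59, SE 0.13, adjusted p = 0.00121) and Grin2a (−0.41, SE 0.14, adjusted p = 0.0396, and −0.42, SE 0.14, adjusted p = 0.047) fell in Grn+/- and in humanized mice. The kinase gene Camk2a (−0.20, SE 0.06, adjusted p = 0.0181) and the adenylyl cyclase gene Adcy1 (−0.39, SE 0.11, adjusted p = 0.0221) fell in humanized mice, and the calmodulin gene Calm2 rose in Grn+/- (0.22, SE 0.06, adjusted p = 0.0122).

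Partners of the proteins were mostly below the threshold. None of 10 partners of EGR, NR4A and NPAS4 passed in either mutant. Nab2, a corepressor of EGR factors that they themselves induce, came nearest (−0.28, SE 0.09, adjusted p = 0.0519 in humanized mice) in the authors' deposited table. Of 20 genes for ARC partners and AMPA receptor trafficking, Dnm2, a dynamin, fell in Grn+/- (−0.22, SE 0.07, adjusted p = 0.046) and Wasf1, an actin regulator, rose in humanized mice (0.30, SE 0.09, adjusted p = 0.0182). That is 5.0% of the list in each mutant, where 6.80% of all genes passed in Grn+/- and 4.87% in humanized mice. The scaffold that HOMER1 belongs to had 4 of 16 genes lower in each mutant and none higher. In Grn+/- these were Shank2 (−0.34, SE 0.08, adjusted p = 0.00161), Itpr2 (−0.32, SE 0.09, adjusted p = 0.0119), Shank1 (−0.26, SE 0.08, adjusted p = 0.025) and Homer2 (−0.28, SE 0.09, adjusted p = 0.0384) in the authors' deposited table. In humanized mice they were the calcium-release channel genes Ryr2 (−0.39, SE 0.10, adjusted p = 0.00495), Itpr1 (−0.41, SE 0.11, adjusted p = 0.0152) and Itpr2 (−0.29, SE 0.09, adjusted p = 0.0305), and Shank3 (−0.24, SE 0.07, adjusted p = 0.0133). Between the mutants, no gene of these last 5 groups or of the slower wave passed.

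**Figure D4:**
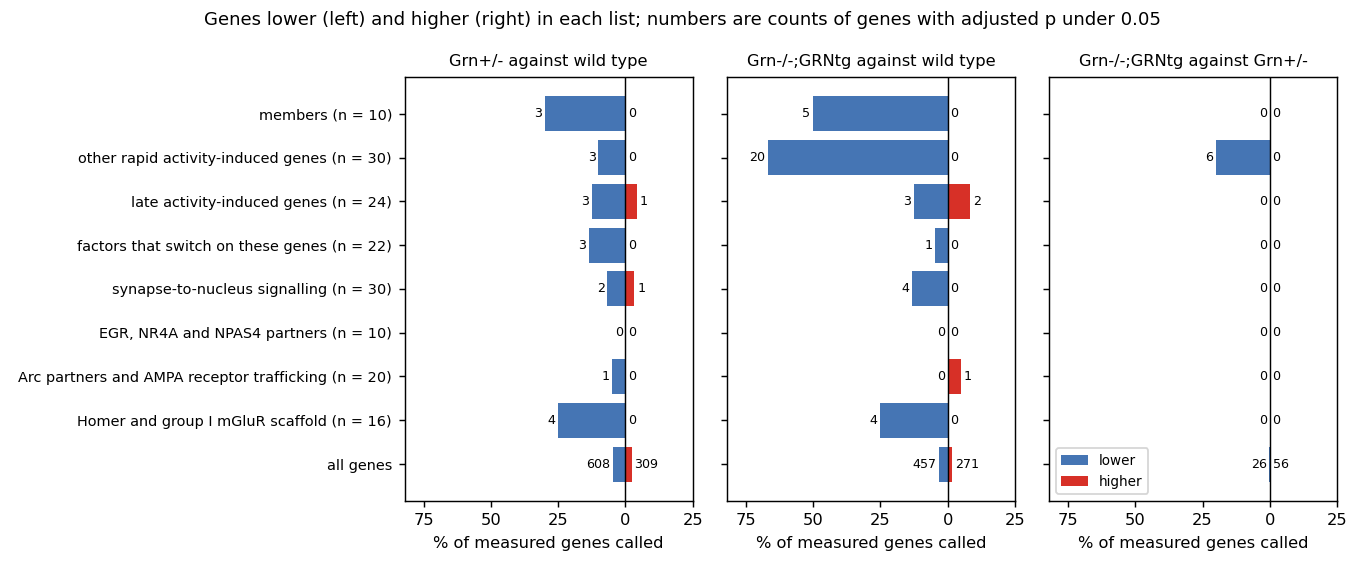
Genes with an adjusted p under 0.05 in each group of genes. The x axis is the percentage of measured genes, bars to the left are lower and bars to the right higher, numbers are gene counts, and each panel is 1 comparison. The 10 genes have 3, 5 and 0 lower, and the 30 other rapid genes 3, 20 and 6, while the bottom bars give all genes.

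Ryr2, the ryanodine receptor of neuronal calcium stores, had the smallest distance to the pattern of the 10 genes. Likeness was the distance of a gene's log2 fold changes against wild type from the members' medians, over the 3 genotypes and 11359 other genes with a mean normalized count of at least 100. Ryr2 stood at −0.25 in Grn+/- (adjusted p = 0.0873) and −0.39 in humanized mice, at a distance of 0.0022 log2 units, in the authors' deposited tables. Rbm12b1 (−0.25 and −0.40, distance 0.0091), Otub2 (−0.26 and −0.37, distance 0.019), Insc (−0.26 and −0.41, distance 0.021) and Gm2115 (−0.25 and −0.36, distance 0.025) followed. These distances are smaller than the SEs of the fold changes, so the order of the 5 genes is not resolved. Only Ryr2 of these was on a list of pathway genes here.

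Few markers of cell types passed beside these genes. Excitatory neuron markers, which stand for the main source of Arc and Egr1 in cortex, had medians of 0.00 in Grn+/- and −0.01 in humanized mice, and of 8 markers Rorb alone passed, higher in Grn+/- (0.37, SE 0.13, adjusted p = 0.048 in the authors' deposited table). Of 8 pan-neuronal markers, Map2 fell (−0.25, SE 0.07, adjusted p = 0.00921) and Snap25 rose (0.29, SE 0.10, adjusted p = 0.0434) in Grn+/-, and none passed in humanized mice. No inhibitory neuron, oligodendrocyte, microglia or striatal marker passed. The summed mean normalized count was 46185 for the excitatory and 132697 for the pan-neuronal markers, and no neuronal marker on these lists was at 0. Oligodendrocyte markers were negative in 8 of 8 in both mutants, with medians of −0.14 and −0.21. Inhibitory neuron markers were positive in 8 of 8 in Grn+/- and 7 of 8 in humanized mice, with medians of 0.13 and 0.06. Microglia markers were negative in 7 of 8 in both, with medians of −0.07 and −0.04. Striatal markers were positive in 7 of 7 in humanized mice, with a median of 0.15. Over all genes, 4.51% were lower in Grn+/- and 3.05% in humanized mice. Astrocyte markers had 2 of 8 lower in Grn+/- (Slc1a2 at −0.22 and Gja1 at −0.26). Endothelial markers had 3 of 8 lower in humanized mice (Slco1c1 at −0.36, Flt1 at −0.36 and Kdr at −0.40), with a list median of −0.27, and the endothelium also expresses Nr4a1, Egr1 and Klf2. RNAs retained in the nucleus had 4 of 6 lower in Grn+/- (Mirg, Kcnq1ot1, Malat1 and Rian, with a list median of −0.33) and 1 of 6, Malat1 at −0.62, in humanized mice. The normalized count of reads assigned to no gene was lower in both, at −0.22 (adjusted p = 0.00193) and −0.18 (adjusted p = 0.0241) (log2 fold changes of the authors' deposited tables). The part of these differences in the members' results was not tested. Of the dentate and hippocampal markers, 0 of 3 and 0 of 7 measured passed against wild type, and C1ql2 alone of 8 passed between the mutants (0.50, SE 0.12, adjusted p = 0.0187, higher in humanized mice).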

How the data were processed

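RNA from the cortex of 13 mice was sequenced after directional library preparation, per the labels' protocols. The submitters' processing notes name DESeq2 1.34.0, R 4.1.2 and the build mm10. The aligner, counter, annotation and strand setting were not given in the sources used here. Each of 3 deposited tables holds 1 comparison of groups. Per the file headers these give the authors' mean normalized count over libraries (a signal), their log2 fold change with SE, a Wald score, and p-values with adjusted p-values. The score equalled log2 fold change over SE, and the adjusted values followed from the p-values by the Benjamini-Hochberg method. SEs stop at 0.138 in every table, although mean counts go down to 0.52 between the mutants. The members' SEs lay at 80.2% (Homer1, humanized against wild type) to 99.8% (Nr4a1, Grn+/- against wild type) of the highest SE. No source used here says whether the authors shrank fold changes towards 0. If they did, the percentages and intervals lie nearer to the reference level than without shrinkage, which was not tested.

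Here a gene was called at an adjusted p under 0.05 over the whole table. Intervals are the fold change with 95% normal limits from the SE, and cover the spread the authors' model gives. Nothing in the labels gives litter, batch or dissection, so these cannot be told apart from genotype, and whether p-values reflect more than the spread between these mice is not known. Depth per mouse is unknown. Mean normalized counts summed to 18113972 over genes, and 2 rows naming no gene, 17.6% of the total, were left out. Gene models came from GENCODE M21 and start sites from RefSeq, both on GRCm38. Where RefSeq gave several starts, the window nearest the GENCODE principal start was taken, and the window used for Homer1 starts 1402 bases from it.

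All 10 genes were named. From each other list, up to 4 genes called per comparison were named by smallest adjusted p, or values of up to 2 with the smallest p where none was called, as well as the 5 genes most alike in fold change. Ptgs2, the fifth called in its list, the remaining marker genes and the genes overlapping Grn and Homer1 were named beyond this rule, after their values were seen. The members and lists were chosen with earlier results of these data known. The recomputation was tested on simulated data with noise drawn from the deposited SEs. Such data lack the wider robust spread of the real Wald scores (1.49 in Grn+/- and 1.56 in humanized mice against wild type). The simulation therefore checks the calculation and not the calls made here. Calculations used Python 3.11.15 with pandas 2.3.3, numpy 2.4.6 and scipy 1.17.1. Alternatives were another set of genes for adjustment, Wald scores divided by their robust spread, a minimum fold change, median centring, a minimum mean count and a stricter threshold.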

Additional observations from a re-analysis of the deposited data

How the results depend on the processing

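No paired analysis was possible because the deposited tables hold no values per mouse. For the same reason leaving out each mouse was not run. Fold changes were kept as deposited in every alternative but median centring, so their direction was fixed nearly in advance. Of 150 recomputed results of the 10 genes, 140 kept their side of the threshold, and most of these had not passed before. A further 8 no longer passed, and 2 came to pass, both Homer1 in humanized mice. All 8 were lost when Wald scores were divided by their robust spread (1.49 in Grn+/- against wild type, 1.56 in humanized mice against wild type and 1.10 between the mutants). That left 0 of the 3 genes lower in Grn+/- and 0 of the 5 in humanized mice, while calls over all genes went from 917 to 3, from 728 to 5 and, between the mutants, from 82 to 29. At an adjusted p under 0.01, 2 members passed in Grn+/- and 4 in humanized mice, and calls over all genes were 357, 254 and 35. A log2 fold change of at least 0.3 left 499, 454 and 69. Between the mutants, 43 genes passed when adjusted over the genes in all 3 tables, and 36 with a mean normalized count of at least 100. No member passed between the mutants under any alternative. Depth per mouse is unknown and limits every value.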
